A study of Rattus norvegicus with 18 samples.

Results

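Calcineurin is the phosphatase that cyclosporin A blocks, and its subunits, the NFATc transcription factors it activates and the Rcan proteins that restrain it were followed across 6 groups of cultured rat kidney cells. The genes are Ppp3ca, Ppp3cb and Ppp3cc (catalytic subunits), Ppp3r1 (regulatory subunit), Nfatc1 to Nfatc4, and Rcan1 and Rcan2. Every array feature whose only symbol in the platform's probe gene table is one of these 10 names was taken, whatever its values. That gave 10 of 28328 features and covered 9 of the 10 genes, with 2 features for Ppp3r1 and 1 for each of the others. Nfatc1 was not analysed here.

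The cells are primary cultures from the rat inner medulla, labelled as collecting duct cells, and total RNA was hybridised to 18 arrays, 3 in each group. One culture was grown at 300 mosmol/kg and another at 600 mosmol/kg. From the first, cells were moved to 600 mosmol/kg for 24 h, named the 600 challenge here. From the second they were moved to 900 mosmol/kg for 24 h, named the 900 challenge. Both challenges were run without and with 5 µM cyclosporin A. The cultures themselves were measured only without the drug. The labels record no strain, age or sex of the animals and no solute, no mock step at unchanged osmolality and no vehicle. Osmolality therefore cannot be told apart from the move or from 24 h more in culture, nor the drug from its solvent. Separate animals or cultures behind the 3 arrays of a group are not recorded, so the p-values cover array-to-array spread, possibly technical, and no more.

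Calcineurin is a heterodimer of a catalytic A subunit and a regulatory B subunit, and it is switched on by calcium and calmodulin. It removes phosphates from the cytoplasmic NFATc proteins, which then enter the nucleus and act on DNA with partners such as AP-1. Cyclosporin A binds cyclophilin, and the complex covers the phosphatase's substrate site, so the drug acts on the protein's activity and not directly on the level of its mRNA. Rcan1 encodes an inhibitor of calcineurin and is known as a target of NFATc itself, through a promoter inside the gene. In the collecting duct, calcineurin is known for its links to aquaporin-2, the water channel of principal cells. Nfat5, which drives the response to hypertonicity, shares the DNA-binding domain of the NFATc factors but lacks their calcineurin docking region.

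Promoter sequence was found for 6 of the 9 measured genes in the RefSeq promoter table (build GRCr8), and none for Ppp3cc, Nfatc3 and Nfatc4. The 250 bases before the annotated start are shown for Rcan1, Rcan2 and Ppp3ca, the genes among these 6 whose levels differed most clearly between groups. Bases in capitals match a motif that was searched on both strands. The core of the NFAT site was spelled GGAAA. The AP-1 site was searched as TGACTCA, the cAMP response element by the letters TGACGTCA, and the TATA box by the letters TATAAA. The motifs were chosen after the Rcan1 sequence had been read.
Rcan1, minus strand, chr11:45118237-45118486: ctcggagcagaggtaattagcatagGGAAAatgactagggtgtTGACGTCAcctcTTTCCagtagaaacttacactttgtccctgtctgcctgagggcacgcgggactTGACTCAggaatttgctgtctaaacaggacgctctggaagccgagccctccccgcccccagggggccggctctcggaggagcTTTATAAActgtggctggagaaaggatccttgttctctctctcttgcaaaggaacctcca
Rcan2, minus strand, chr9:24672190-24672439: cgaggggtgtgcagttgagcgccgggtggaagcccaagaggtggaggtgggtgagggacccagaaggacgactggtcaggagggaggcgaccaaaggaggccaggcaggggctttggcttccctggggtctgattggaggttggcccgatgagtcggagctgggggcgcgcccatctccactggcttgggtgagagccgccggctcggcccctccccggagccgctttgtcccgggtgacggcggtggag
Ppp3ca, plus strand, chr2:227839357-227839606: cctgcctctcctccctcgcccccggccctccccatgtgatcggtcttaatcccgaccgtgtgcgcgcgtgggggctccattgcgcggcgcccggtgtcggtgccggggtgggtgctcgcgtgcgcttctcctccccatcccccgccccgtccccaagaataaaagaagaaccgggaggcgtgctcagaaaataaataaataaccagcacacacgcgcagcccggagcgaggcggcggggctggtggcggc

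The windows of Rcan1, Rcan2, Nfatc2 and Ppp3r1 lie before a start site more than 1 kb inside the annotated gene, and those of Ppp3ca and Ppp3cb do not. The Rcan1 window holds 2 NFAT cores, at 225 to 221 and 195 to 191 bases before the start, with a cAMP response element between them at 207 to 200. An AP-1 site lies at 142 to 136, and a pair of overlapping TATA boxes covers 60 to 53. The windows of Rcan2, Ppp3ca and Nfatc2 hold none of the 4 motifs, and those of Ppp3r1 and Ppp3cb hold 1 NFAT core each. Of 33469 promoters of the same length, 56.9% hold an NFAT core, 4.05% the AP-1 site, 1.59% the cAMP response element and 12.9% the TATA box. A match is a description of letters and not of binding, and a window without a match says only that the letters are absent there.

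The deposited values are logarithms of an unstated base, so levels and differences are in log units. A unit stands for 2-fold under base 2 and for 2.72-fold under the natural base. Array medians lay between 3.564 and 3.649 and lower quartiles between 2.476 and 2.696. Markers of epithelium averaged 7.43 to 7.70 in every array, but single markers moved in both directions. By limma (adjusted p under 0.05), 1 of 6 rose and 3 fell from either culture to its challenge without the drug. Between the cultures, 2 were higher and 2 lower at 600 mosmol/kg. Of all features, 14.4%, 17.4% and 17.2% were called in these comparisons. Aqp2, the water channel that defines principal cells, was at 1.49 to 1.72 in the 300 culture, under the lower quartile, and at 6.32 to 6.84 in the 600 culture. The other cell types' markers also moved. The macrophage and leukocyte list (10 markers) averaged 5.25 to 5.37 in the 300 culture, 3.82 to 3.95 after the 600 challenge, 4.05 to 4.17 in the 600 culture and 2.90 to 2.96 after the 900 challenge. Over the same groups fibroblast markers (8) went from 5.33 to 5.42, to 4.65 to 4.74, to 5.03 to 5.10 and to 4.50 to 4.56, and smooth muscle markers (4) from 6.29 to 6.33, to 4.49 to 4.69, to 5.77 to 5.95 and to 4.15 to 4.59. Lymphocyte and endothelium markers averaged 2.55 to 2.97 and 4.78 to 5.31 over all arrays. Of 6 endothelium markers, 1 rose and 4 fell to the 600 challenge, and 1 rose and 3 fell to the 900 challenge. Between the cultures, 3 of them were higher and 2 lower at 600 mosmol/kg. Intercalated cell markers averaged 2.58 to 2.93 in arrays begun at 300 mosmol/kg and 1.97 to 2.28 in those begun at 600. In every group 4 of 5 intercalated cell markers and 3 or 4 of 6 lymphocyte markers lay under the lower quartile. No marker was at 0 as a group mean, and the part of these shifts in the results on calcineurin genes was not tested. In bulk RNA, fewer cells of a type cannot be told apart from less RNA per cell.

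Cyclosporin A left no call on any of the calcineurin, NFATc or Rcan features, against 0.409% and 0.505% of all features at the 2 challenges. Comparisons between osmotic conditions called 0 to 3 of the 10, against 14.1% to 17.8% of all features. A smaller difference sufficed for a call there. For Rcan1 it was 0.24 between the 900 challenge and the 600 culture, and 0.37 for the drug at that challenge. Rcan1 was higher after the 900 challenge than in the 600 culture by 0.37 log units without the drug and by 0.41 with it. Ppp3ca, the catalytic subunit gene, was lower by 0.22 and 0.20 in the same comparisons. Rcan2, the other inhibitor gene, was lower in the 600 culture than in the 300 culture by 0.36. The values behind these statements are given first, by role.

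**Figure D1:**
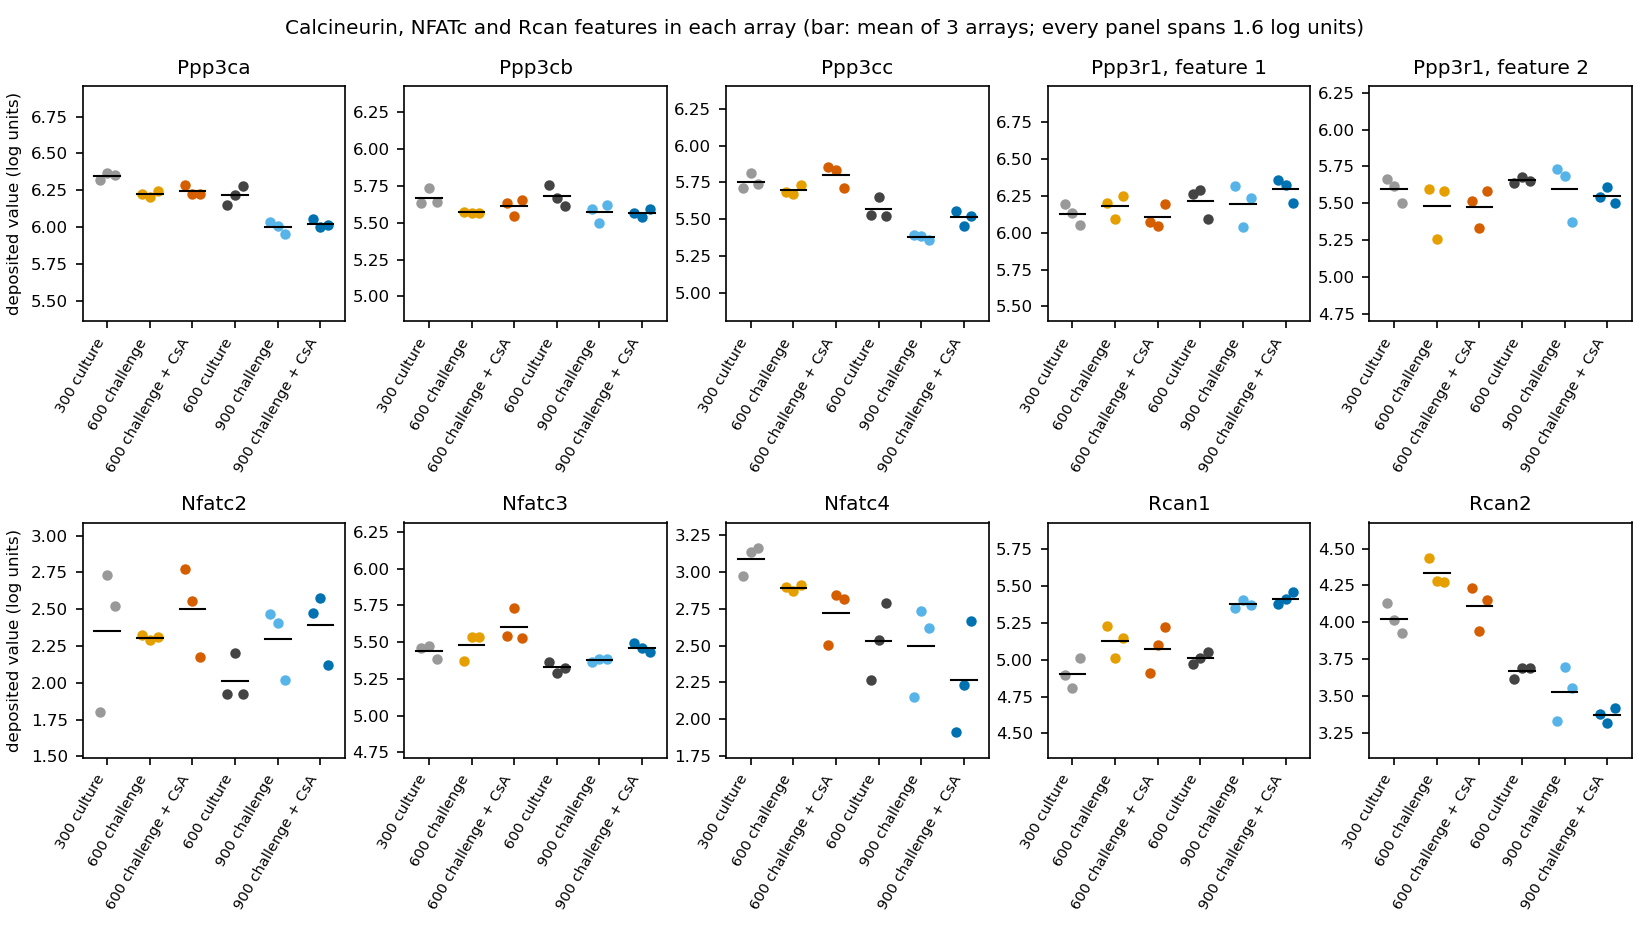
Deposited values in log units (vertical axis, each panel spanning 1.6 log units) for the 10 features in the 6 groups (horizontal axis), with 1 point for each array and a bar at the mean of 3 arrays. Rcan1 sits between 5.355 and 5.461 in all 6 arrays of the 900 challenge, with and without cyclosporin A (CsA), and no other array is above 5.229, while the points of Nfatc2 and Nfatc4 scatter most within groups.

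Ppp3ca (feature 10819281) encodes the alpha isoform of the catalytic subunit. It read 6.32, 6.36 and 6.35 in the 300 culture, 6.22, 6.21 and 6.24 after the 600 challenge, and 6.29, 6.23 and 6.23 after that challenge with the drug. It read 6.15, 6.22 and 6.28 in the 600 culture, 6.036, 6.004 and 5.953 after the 900 challenge, and 6.055, 5.997 and 6.012 with the drug. All arrays of the 300 culture were above all others, and all 6 arrays of the 900 challenge were below all others. Its spread was small: the SD within groups, pooled over the 6 groups, was 0.0385, and 4.11% of all features had a smaller one.

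Ppp3cb (feature 10779099), the beta isoform, spanned only 5.50 to 5.76 over all 18 arrays, and its 6 group means lay within 0.11 log units. The group means in order were the 600 culture, the 300 culture, the 600 challenge with the drug, the 900 challenge, the 600 challenge and the 900 challenge with the drug, and every pair of neighbours overlapped. The reference table names 1 Ppp3cb pseudogene, so signal shared with it is uncertain.

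Ppp3cc (feature 10785005) encodes the gamma isoform, best known from testis. It read 5.71, 5.81 and 5.74 in the 300 culture, 5.69, 5.67 and 5.73 after the 600 challenge, and 5.85, 5.84 and 5.71 with the drug. It read 5.53, 5.65 and 5.52 in the 600 culture, 5.39, 5.39 and 5.36 after the 900 challenge, and 5.56, 5.45 and 5.52 with the drug. The arrays grown at 600 mosmol/kg were thus lower than those grown at 300, and the 900 challenge without the drug was lowest, apart from all other groups.

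Ppp3r1 encodes the regulatory B subunit, which binds calcium, and its 2 features gave no call in any comparison. Feature 10774310 spanned 6.04 to 6.36 and feature 10908218 spanned 5.26 to 5.74 over the 18 arrays, and neighbouring groups overlapped throughout for both. Their orders of group means differed: the 900 challenge with the drug was highest on the first and the 600 culture on the second. The reference table names 2 Ppp3r1 pseudogenes, so which sequence each feature reads is uncertain.

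Among the NFATc factors Nfatc3 (feature 10807452) was the only one well inside the measured range. It read 5.46, 5.47 and 5.38 in the 300 culture, 5.37, 5.53 and 5.54 after the 600 challenge, and 5.54, 5.73 and 5.53 with the drug. In the 600 culture it read 5.37, 5.29 and 5.33, after the 900 challenge 5.37, 5.38 and 5.39, and with the drug 5.50, 5.46 and 5.43. The 600 challenge with the drug had the highest mean and the 600 culture the lowest, and only the 900 challenge and the 600 culture, neighbours in that order, did not overlap.

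Nfatc4 (feature 10780507) was dim and scattered. It read 2.98, 3.14 and 3.16 in the 300 culture, 2.90, 2.87 and 2.91 after the 600 challenge, 2.51, 2.85 and 2.82 with the drug, 2.27, 2.54 and 2.79 in the 600 culture, 2.15, 2.73 and 2.62 after the 900 challenge, and 1.91, 2.24 and 2.67 with the drug. The 300 culture was above all other arrays, and 6 of the 18 values lay under the lower quartile of their own array, where a level is not shown to stand above background. Nfatc2 (feature 10852019) lay under that quartile in 16 of 18 arrays, spanned 1.80 to 2.78, and overlapped between all neighbouring groups of its order.

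Rcan1 (feature 10753214), whose promoter window is printed above, read 4.90, 4.81 and 5.01 in the 300 culture, 5.23, 5.01 and 5.15 after the 600 challenge, and 4.91, 5.10 and 5.22 with the drug. It read 4.97, 5.01 and 5.05 in the 600 culture, 5.36, 5.41 and 5.37 after the 900 challenge, and 5.38, 5.41 and 5.46 with the drug. Both 900 groups were above every other array and overlapped each other, while the remaining 4 groups overlapped their neighbours in the order. The lowest array of the 600 challenge (5.013) was just above the highest of the 300 culture (5.01).

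Rcan2 (feature 10926658) encodes a second inhibitor of calcineurin, known from brain and muscle and from its induction by thyroid hormone. It read 4.13, 4.01 and 3.92 in the 300 culture, 4.44, 4.28 and 4.27 after the 600 challenge, and 4.23, 3.94 and 4.15 with the drug. It read 3.62, 3.69 and 3.69 in the 600 culture, 3.33, 3.69 and 3.55 after the 900 challenge, and 3.37, 3.32 and 3.42 with the drug. Every array that began at 300 mosmol/kg was above every array that began at 600. Its 6 group means spanned 0.96 log units, the widest span of the 10 features, and the 600 challenge without the drug stood apart at the top.

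Whether cyclosporin A altered these genes was asked at each challenge. At the 600 challenge 0 of 10 features passed an adjusted p of 0.05 (limma, Benjamini-Hochberg over all features), against 0.409% of all features (0.138% to 0.237% with any 1 of the 6 arrays left out). By unadjusted p-values 1 of 10 fell under 0.05, against 8.49% of all features. It was Rcan2, with a difference of -0.22 ± 0.093 (SE; 95% interval -0.42 to -0.02; adjusted p = 0.516). Its 3 values with the drug were all below the 3 without it, as were those of Nfatc4 (-0.17 ± 0.19), which makes 2 of 10 features without overlap against 13.2% of all features.

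At the 900 challenge again 0 of 10 passed, against 0.505% of all features (0.152% to 0.268% with any 1 array left out). By unadjusted p-values 1 of 10 fell under 0.05, against 10.6% of all features. It was Ppp3cc, at 0.13 ± 0.054 (95% interval 0.02 to 0.25; adjusted p = 0.385). Its values with the drug were all above those without it, and so were those of Nfatc3 (0.085 ± 0.061), again 2 of 10 without overlap against 15.8% of all features. Every alternative setting and every array left out gave 0 calls at both challenges.

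Averaged over both challenges the drug differences were 0.12 for Ppp3cc (95% interval 0.04 to 0.20), 0.10 for Nfatc3 (0.01 to 0.19) and -0.19 for Rcan2 (-0.33 to -0.05), with adjusted p-values of 0.193, 0.369 and 0.25. These were 3 of 10 features with an unadjusted p under 0.05, against 11.3% of all features, and 0 of 10 were called, against 1.14%. Rcan1, the NFATc target in the set, differed by -0.05 (95% interval -0.22 to 0.11) at the 600 challenge and by 0.04 (-0.13 to 0.20) at the 900 challenge, and by -0.008 (-0.13 to 0.11) on average. Whether its 1 feature reads the transcript from the promoter inside the gene is not known here. A measured drug difference of about 0.38 log units would have been needed for a call on Rcan1 at the 600 challenge and 0.37 at the 900 challenge. Smaller measured differences in either direction could not be called with 3 arrays a group, so the lack of a call does not exclude an effect. For Ppp3ca the measured difference needed was 0.22 at both, and for the dim Nfatc2 and Nfatc4 it was 0.90 to 1.07.

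**Figure D2:**
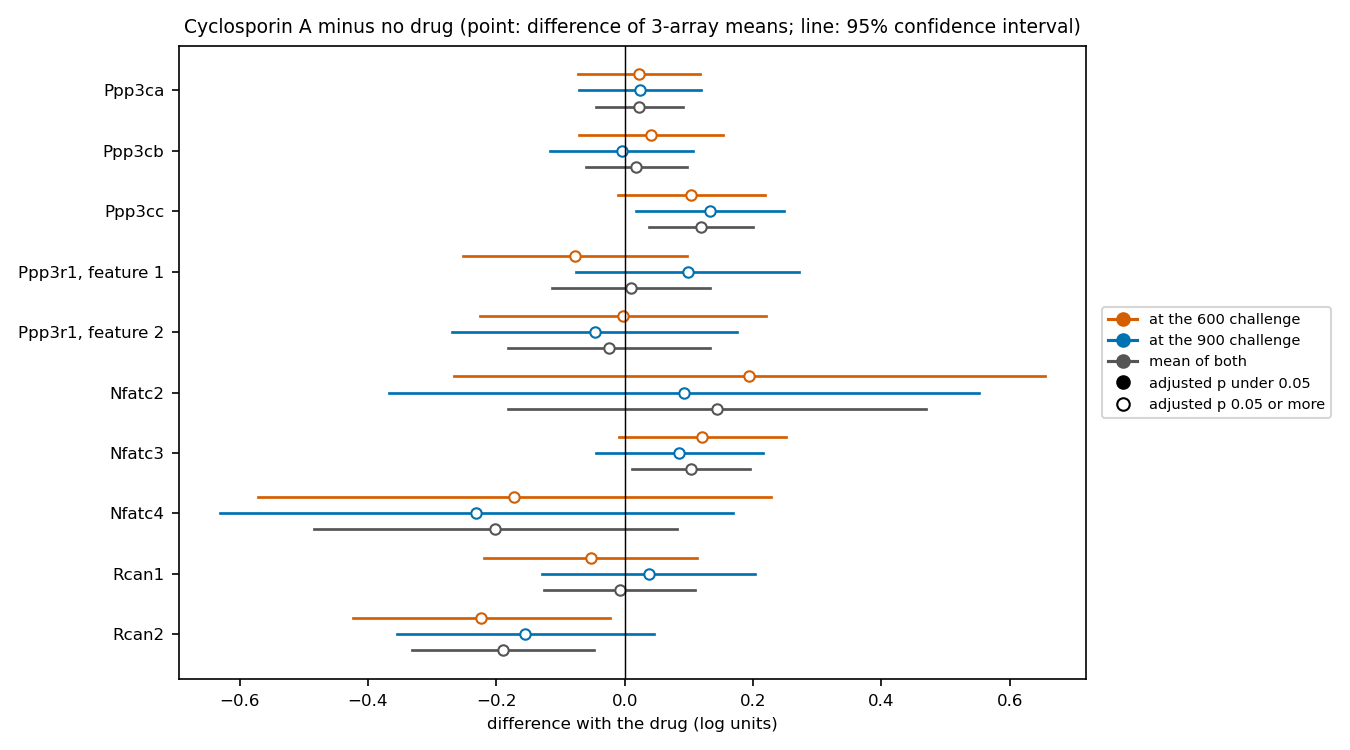
Difference of cyclosporin A minus no drug in log units (horizontal axis) for each feature (vertical axis) at the 600 challenge, at the 900 challenge and as the mean of both; points are differences of 3-array means and lines are 95% confidence intervals, open where the adjusted p is 0.05 or more. All points are open, the intervals of Rcan1 and Ppp3ca stay within 0.22 of 0 throughout, and the mean over both challenges is off 0 for Ppp3cc, Nfatc3 and Rcan2.

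The drug effect was then compared between challenges. The difference between both effects was called for 0 of 10 features, against 0.0459% of all, and 0 had an unadjusted p under 0.05, against 7.59% of all. It ranged from -0.10 (Nfatc2) to 0.18 (the first Ppp3r1 feature, with a 95% interval of -0.07 to 0.42), and for Rcan1 it was 0.09 (-0.14 to 0.32).

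The step from the 300 culture to the 600 challenge without the drug was called for 1 of 10 features, against 14.4% of all. Rcan2 rose by 0.31 ± 0.093 (adjusted p = 0.0396), from 4.02 ± 0.11 to 4.33 ± 0.093 (SD, n = 3), which is 1.24-fold under base 2 and 1.36-fold under the natural base. Rcan1 differed by 0.23 ± 0.077 (adjusted p = 0.0687) and Ppp3ca by -0.12 ± 0.045 (adjusted p = 0.0935), both without overlap between groups. Rcan1 passed without replicate 3 of the 300 culture (0.28, adjusted p = 0.0482) or replicate 2 of the 600 challenge (0.28, adjusted p = 0.0402). The median over the 10 features was -0.05, beside 0.02 over all features. The Rcan2 call was lost in 5 of 6 fits with 1 array left out (adjusted p between 0.0582 and 0.153, without replicate 2 or 3 of the 300 culture or any array of the 600 challenge), in a fit of these 2 groups only (0.0736) and in a plain 2-sample test (0.117). The plain test called Ppp3ca in this step.

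With the drug the same step, which shares its 300 culture arrays with the comparison above, gave 0 calls against 14.1% of all features, also in the plain test, and 3 of 10 features with an unadjusted p under 0.05 against 25.3% of all: Rcan1 (0.17 ± 0.077), Nfatc3 (0.16 ± 0.061) and Ppp3ca (-0.10 ± 0.045). Their adjusted p-values were 0.178, 0.102 and 0.185. Without replicate 1 of the 600 challenge with the drug, Rcan1 was called at 0.25 (adjusted p = 0.0413). Rcan2 differed by 0.08 ± 0.093 in this step.

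The step from the 600 culture to the 900 challenge without the drug was called for 3 of 10 features, against 17.4% of all. Rcan1 rose by 0.37 ± 0.077 (adjusted p = 0.00351), from 5.01 ± 0.041 to 5.38 ± 0.028 (SD, n = 3), or 1.29-fold with base 2 and 1.45-fold with a natural log. Ppp3ca fell by 0.22 (SE 0.045, adjusted p = 0.00287) from 6.22 ± 0.063, which is 0.859-fold or 0.804-fold, and Ppp3cc fell by 0.19 (SE 0.054, adjusted p = 0.024). The calls on Ppp3cc and Ppp3ca rest on the spread shared over 6 groups: with only these 2 groups in the fit the adjusted p was 0.125 for Ppp3cc and 0.0862 for Ppp3ca. Ppp3cc also lost its call with arrays centred on their medians (-0.16, adjusted p = 0.077) and without replicate 2 of the 600 culture (0.118) or any 1 array of the 900 challenge (0.0508 to 0.0759), whereas Rcan1 kept it in every alternative run.

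With the drug this step, which shares the 600 culture arrays, was called for 3 of 10 features against 17.8% of all. Rcan1 rose by 0.41 ± 0.077 (adjusted p = 0.00167) and Ppp3ca fell by 0.20 (SE 0.045, adjusted p = 0.00627). Rcan2 fell by 0.30 (SE 0.093, adjusted p = 0.0405), a call lost with any 1 of the 6 arrays left out (adjusted p 0.0624 to 0.114) and with arrays centred on their medians (-0.25, adjusted p = 0.09). With only these 2 groups in the fit, Ppp3ca had an adjusted p of 0.107. Of all features called in this step 40.9% were higher on the deposited scale and 53.5% with arrays centred, so directions of small differences here depend on the scale. Ppp3ca and Rcan1 kept their direction and call under that centring and under quantile normalization. Leukocyte markers fell in the same comparison (9 of 10), as did fibroblast (6 of 8) and smooth muscle markers (4 of 4), and their part was not tested.

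**Figure D3:**
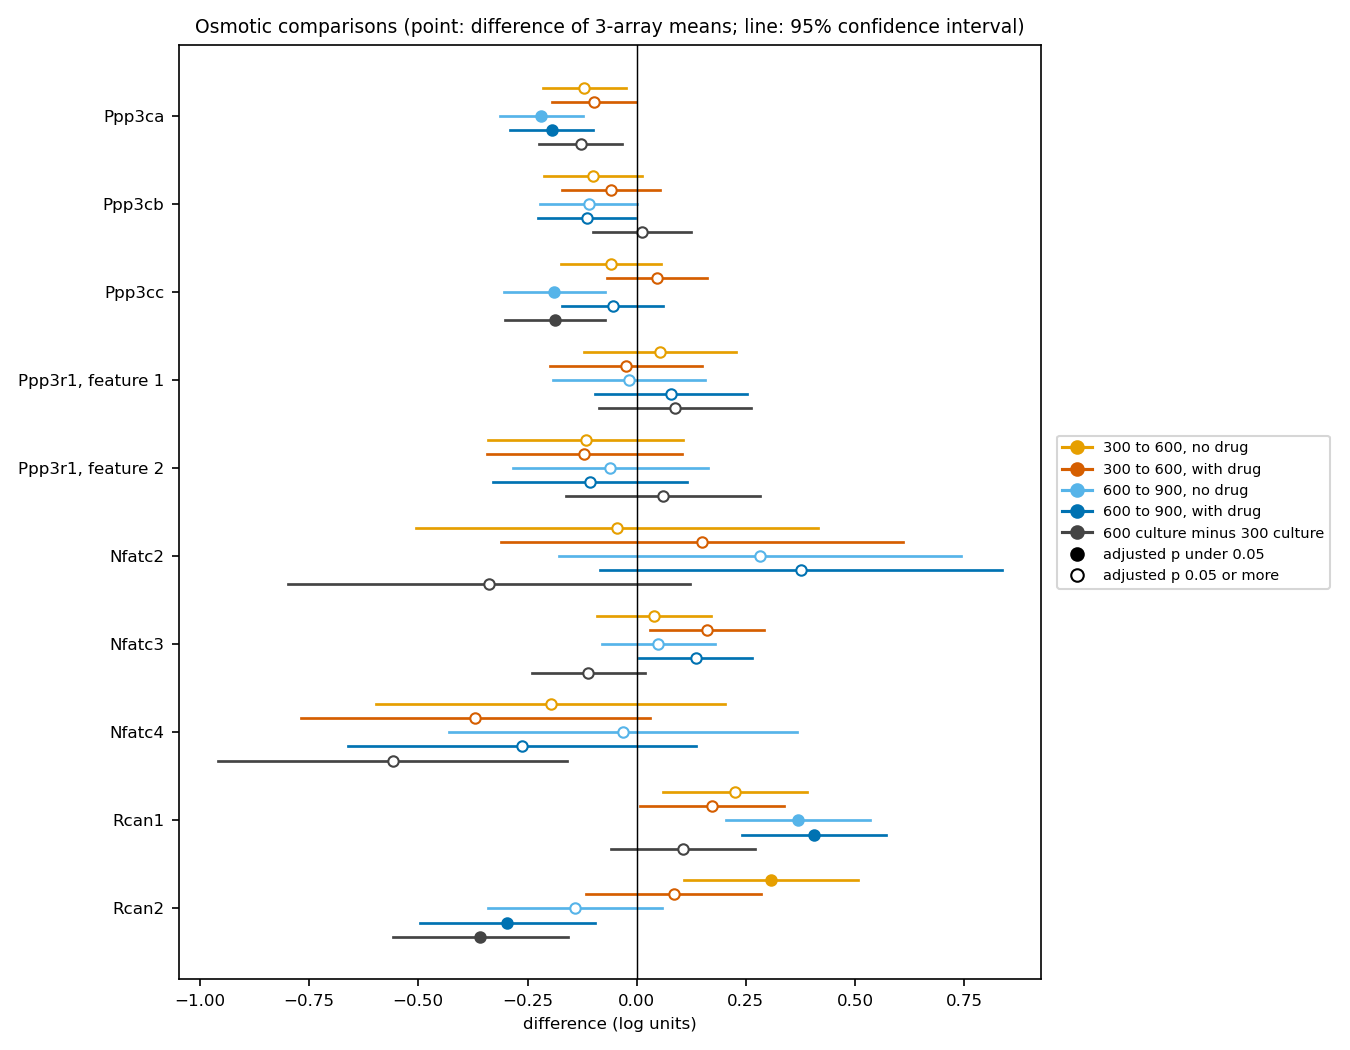
Differences in log units (horizontal axis) of each feature (vertical axis) in the 5 osmotic comparisons; points are differences of 3-array means, lines are 95% confidence intervals, and filled points have an adjusted p under 0.05. Rcan1 is to the right of 0 and Ppp3ca to the left in both 600 to 900 steps, while Rcan2 is on the right for 300 to 600 without the drug and on the left for the 600 culture against the 300 culture.

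Long-term growth at the higher osmolality was read from the 600 culture against the 300 culture, in which 2 of 10 features were called, against 17.2% of all. Rcan2 fell by 0.36 (SE 0.093, adjusted p = 0.0145), from 4.02 ± 0.11 to 3.67 ± 0.044 (SD, n = 3), or 0.78-fold with base 2 and 0.699-fold with a natural log. Ppp3cc fell by 0.19 (SE 0.054, adjusted p = 0.0247). Nfatc4 differed by -0.56 ± 0.19 (adjusted p = 0.054) and Ppp3ca by -0.13 ± 0.045 (adjusted p = 0.0653), both without overlap, and Rcan1 by 0.11 ± 0.077 (adjusted p = 0.451). The Rcan2 call was lost without replicate 1 of either culture (adjusted p 0.0715 and 0.056), and that of Ppp3cc without replicate 2 or 3 of the 300 culture or replicate 1 or 3 of the 600 culture (0.052 to 0.107). Nfatc4 passed without replicate 3 of the 600 culture (-0.69, adjusted p = 0.0355) and Ppp3ca without the same array (-0.16, adjusted p = 0.0414), and Nfatc2 without replicate 1 of the 300 culture (-0.61, adjusted p = 0.0388).

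At the same final 600 mosmol/kg, Rcan2 separated the challenged cells from those grown there. It was higher after the 600 challenge than in the 600 culture by 0.67 ± 0.093 (adjusted p = 0.000119), or 1.59-fold and 1.95-fold under the bases 2 and e, and it was the 1 feature of 10 called, against 16.4% of all features. The Rcan2 call held with each array left out in turn, and Nfatc3 was called as well without replicate 1 of the 600 challenge (0.21, adjusted p = 0.0431). This comparison was added after the values had been seen. The principal cell markers differed alongside: 8 of 11 were higher in the 600 culture than in the 300 culture, averaging 4.81 to 5.12 against 3.02 to 3.11, and 8 of 11 were lower after the 600 challenge than in the 600 culture. Their part in the Rcan2 difference was not tested.

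The step to 900 minus the step to 600, also added after the values were seen, was called for 0 of 10 features (7.58% of all features), and 1, Rcan2, had an unadjusted p under 0.05 (20.7% of all). Its difference was -0.45 ± 0.13 (adjusted p = 0.0543), which passed without replicate 2 of the 900 challenge (-0.53, adjusted p = 0.0253). For Rcan1 the steps differed by 0.14 (95% interval -0.09 to 0.38), so its larger value in the second step was within the error of the difference.

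Genes around calcineurin were counted in 7 lists with 96 members, 87 of them measured, each by its feature with the highest mean. The lists were chosen with earlier results of these data known. The shares of all features include 12711 features without a symbol. With low means filtered out, the shares called for the drug were 0.838% at the 600 challenge and 1.1% at the 900 challenge. Of the 18 measured partners and regulators of calcineurin, 0 were called for the drug at either challenge, against 0.409% and 0.505% of all features. In limma 2 and 1 of them had an unadjusted p under 0.05, against 8.49% and 10.6% of all features, and their medians were -0.04 and -0.06. These 4 shares of all features apply to each list that follows. After the 900 challenge 3 of 18 fell, against 17.4% of all features called in either direction: Homer3, a scaffold protein that competes with calcineurin for NFATc (-0.21 ± 0.048), and the calmodulin genes Calm2 (-0.17 ± 0.049) and Calm3 (-0.16 ± 0.050). The calls on Calm2 and Calm3 were lost with arrays centred on their medians, and without either replicate 1 or 2 of the 600 culture or replicate 1 or 3 of the 900 challenge, and that on Calm3 also without replicate 3 of the 600 culture. With the drug the same 3 genes fell by 0.17 to 0.23. In the 600 culture against the 300 culture 2 of 18 rose and 2 fell, against 17.2% of all features called in either direction. Chp2, a calcineurin B homologue, rose by 0.85 ± 0.15, and Homer2 rose by 0.57 ± 0.15 (adjusted p = 0.0137). Fkbp1b, which encodes a binding protein of the calcineurin inhibitor tacrolimus, fell by 0.31 (SE 0.075), and Fkbp1a fell by 0.24 (SE 0.062).

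Upstream of calcineurin, 14 genes of calcium entry and release were measured and 0 were called for the drug at either challenge (0.409% and 0.505% of all features). By unadjusted p the counts were 2 and 0 (8.49% and 10.6% of all). Trpc6, a calcium channel, differed most clearly with it at the 600 challenge (0.40 ± 0.090, adjusted p = 0.0882). Without the drug Trpc6 fell by 0.75 ± 0.090 in the step to 600 and by 0.86 ± 0.090 in the step to 900, and it was lower by 0.61 in the 600 culture than in the 300 culture. Itpr2, an inositol trisphosphate receptor, rose by 0.81 ± 0.061 in the step to 900. Its relatives Itpr1 and Itpr3 were higher in the 600 culture than in the 300 culture by 0.51 and 0.63. Stim1, the calcium sensor of the endoplasmic reticulum, fell by 0.36 ± 0.069 in the step to 600.

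None of the 13 NFAT kinases was called for the drug at either challenge, and 0 and 0 had an unadjusted p under 0.05. In the step to 900 without the drug, Mapk8, which encodes the kinase JNK1, fell by 0.42 ± 0.050 and Mapk14, encoding p38, rose by 0.23 ± 0.063, a call lost without replicate 1 or 2 of the 600 culture or replicate 2 of the 900 challenge. The NFAT kinases' median drug differences were 0.01 and -0.03, beside 0.003 and -0.003 over all features.

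Of 11 nuclear partners of NFATc, Gata3 was called for the drug at the 600 challenge. It fell from 6.04 ± 0.064 to 5.58 ± 0.071 (SD, n = 3), by 0.47 (SE 0.049, adjusted p = 0.000625), and its difference at the 900 challenge was -0.11 (adjusted p for the difference between both effects = 0.104). Gata3 is also a marker of the collecting duct and belongs to the list of 11 principal cell markers. That list averaged 3.18 to 3.19 without and 2.91 to 3.01 with the drug at the 600 challenge. At the 900 challenge it averaged 5.28 to 5.31 without and 5.09 to 5.18 with it. In limma 4 of 11 markers had an unadjusted p under 0.05 at each challenge, against 8.49% and 10.6% of all features. Their part was not tested. Over both challenges Maf was higher with the drug by 0.22 ± 0.050 (adjusted p = 0.0496), a call lost in 11 of 12 fits with 1 array left out and kept without replicate 3 of the 900 challenge. In the step to 900 without the drug 2 of the 11 rose and 3 fell, against 17.4% of all features called in either direction. Junb and Jun, subunits of AP-1, fell by 0.90 ± 0.098 and 0.41 ± 0.049, and Maf fell by 0.67. The means of Fosl2 and Fos, also subunits of AP-1, went up, from 6.91 to 7.10 and from 3.49 to 3.60.

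The 24 genes reported as NFATc targets were chosen from work on other cells, many of them lymphocytes, and with earlier results of these data known. Their counts therefore describe the list and do not test it. At the 900 challenge 1 rose and 1 fell with the drug (0.505% of all features called), with a median of 0.0015. By unadjusted p it was 10 of 24, against 10.6% of all features. Ptgs2, the inducible cyclooxygenase, rose from 5.07 ± 0.12 to 5.70 ± 0.11 (SD, n = 3), by 0.63 ± 0.11 (adjusted p = 0.0193). That call was lost without replicate 2 or 3 of the 900 challenge or replicate 1 or 2 of its drug group (adjusted p up to 0.102). Acta2, smooth muscle actin, fell from 7.66 ± 0.029 to 7.20 ± 0.048, by 0.46 (SE 0.042, adjusted p = 0.000126), a call kept without each array in turn. Smooth muscle markers other than Acta2 fell there too, 2 of 4, with a list mean of 4.15 to 4.59 without and 3.88 to 4.07 with the drug, and their part was not tested. At the 600 challenge 0 of 24 were called, against 0.409% of all features, and 8 of 24 had an unadjusted p under 0.05, against 8.49%. Over both challenges Egr2, an early response factor, was higher with the drug by 0.41 ± 0.069 (adjusted p = 0.0105). In fits of only the 2 groups compared, 0 of 28328 features were called for the drug at either challenge, Gata3, Ptgs2 and Acta2 included, and plain 2-sample tests called 2 at the 600 challenge and 0 at the 900 challenge.

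**Figure D4:**
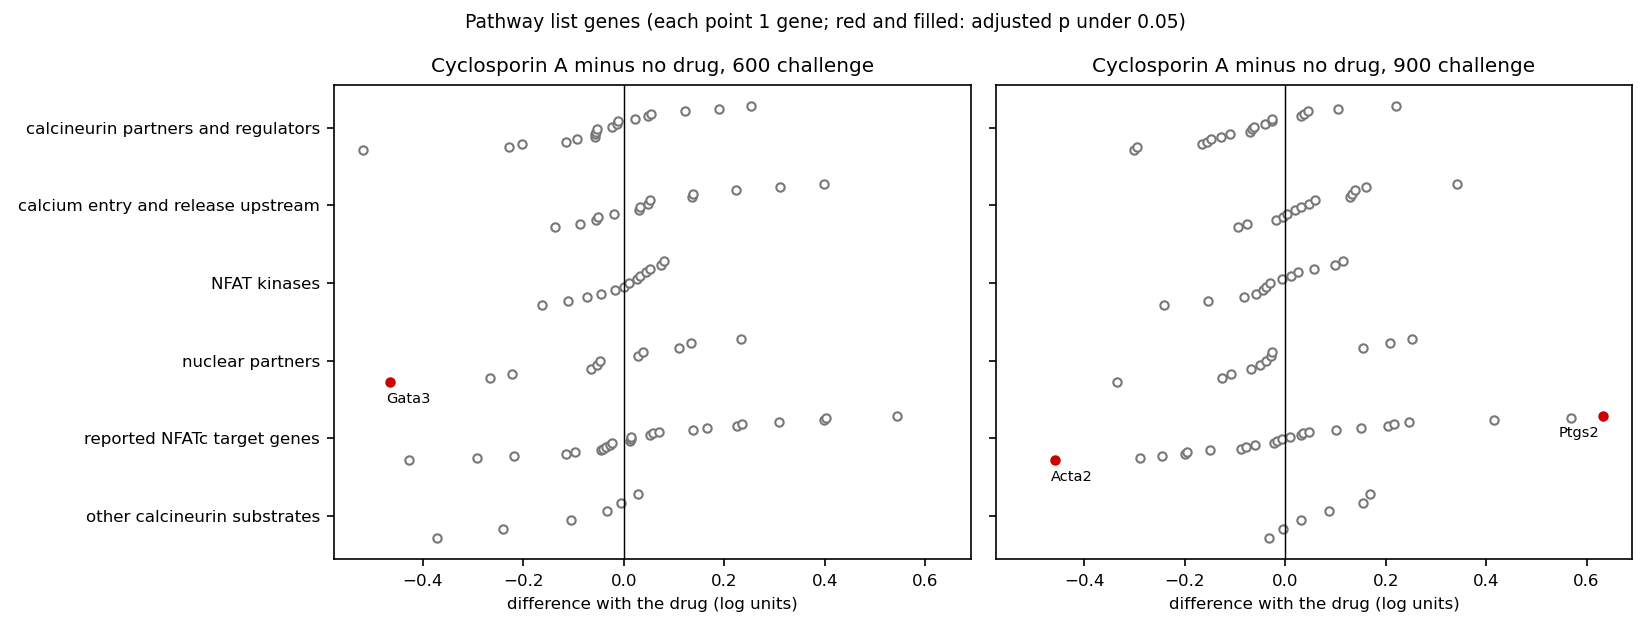
Cyclosporin A minus no drug in log units (horizontal axes) at the 600 challenge (left) and the 900 challenge (right) for the measured genes of 6 pathway lists (vertical axis), 1 point a gene. Filled red points have an adjusted p under 0.05: Gata3 on the left, Ptgs2 and Acta2 on the right.

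In the osmotic steps the reported targets moved in both directions, 4 up and 7 down of 24 in the step to 600 and 4 up and 10 down in the step to 900, both without the drug, against 14.4% and 17.4% of all features called in either direction. The medians were -0.11 and -0.20. Ptgs2 rose by 2.00 ± 0.11 and 1.77 ± 0.11, and F3, which encodes tissue factor, fell by 0.54 and 1.89. Of 6 measured other substrates of calcineurin, 0 were called for the drug at either challenge (2 and 0 by unadjusted p), and Tfeb, a lysosomal gene regulator, rose by 0.30 ± 0.067 and 0.54 ± 0.067 in the steps to 600 and 900. Nfat5 rose by 0.48 ± 0.12 in the step to 600 (adjusted p = 0.0131), a call lost without replicate 1 or 3 of the 300 culture or replicate 3 of the 600 challenge, and its drug differences were -0.05 (adjusted p = 0.959) and -0.16 (adjusted p = 0.692).

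The genes whose levels went most like those of Rcan1 over the 18 arrays, among 15294 other features with 1 symbol, were Abcf3, Plxnb2, Tor1aip2, Adcy6 and Vamp1 (Pearson r 0.924 to 0.937). Rbm12 and Glmn went most against it, both at -0.94. For Rcan2 the nearest were Kif1c (0.965), 2810025M15Rikl, Car4, Pdgfd and Cdk9 (0.948), and the farthest were Rsad2 and Psat1, both at -0.96. These values describe arrays that fall into 6 groups, so they follow mostly how the group means lie.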

How the data were processed

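RNA of primary rat inner medullary cultures was read on 18 Affymetrix whole-transcript arrays (labels' protocols). The deposited table holds the authors' log-scale expression score for each feature. Its log base, summarization and normalization are not given in the sources used here, and neither is the arrays' signal over background. Values run from 0 to 9.504 and were used as deposited, with no filter. The probe gene table gives 15295 features 1 symbol, 322 several and 12711 none. Groups and replicate numbers come from the sample labels. Contrasts of 6 group means were fitted with limma 3.58.1 (R 4.3.3, total df 14.03) and adjusted by Benjamini-Hochberg over 28328 features at 0.05. The script was tested on simulated data. All features of the members were named. Of each pathway list at most 4 called genes in each comparison were picked by size, or the 1 with the smallest adjusted p. The text gives only some of the genes picked. The members and lists were chosen with earlier results of these data known. Alternatives were a replicate block, median centring, quantile normalization, a filter on low means, a variance trend, fits of the compared groups, a plain 2-sample test and leaving out each array. Lists of 8 cell types (56 of 59 markers measured) described the cultures. Each gene of a list was read by its feature with the highest mean. Promoters came from RefSeq (GRCr8).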

Additional observations from a re-analysis of the deposited data

Results flagged for a closer look

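None of the 10 features of calcineurin subunits, NFATc factors and Rcan genes met a rule for a closer look: groups of 3 arrays are too small for the check of single arrays, and no member passed the test of a difference between steps. Of the 87 measured genes of the pathway lists, 16 differed in their response between the step to 900 and the step to 600, both without the drug, by a limma contrast of the 2 differences (adjusted p under 0.05), against 7.58% of all features. The contrast was added after the values had been seen.

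Larger values in the step to 900 were found for 8 genes: the calcium channel gene Orai2 (a difference of 1.41 between the steps), the receptor gene Itpr2 (0.78), the protease gene Ctsk (0.80), the water channel gene Aqp2 (0.77), Maf (0.48), the cytokine gene Il6 (0.42), Gata3 (0.41) and the chemokine gene Ccl2 (0.22). Of these, Ctsk, Maf and Il6 fell in both steps, and less in the step to 900. The Aqp2 means in the step to 600 were 1.61 and 2.28, both under the arrays' lower quartiles (2.476 to 2.696). A level there is not shown to stand above background, so the size of that step is uncertain. Lower values in the step to 900 were found for the other 8: the tissue factor gene F3 (-1.35), the matrix protein gene Ccn1 (-1.16), Junb (-0.69), the endothelin gene Edn1 (-0.68), Myc (-0.57), the phospholipase gene Plcg1 (-0.49), the kinase gene Mapk8 (-0.34) and Jun (-0.32).

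Among the 16 genes, calls on 3 were lost with 1 array left out. That on Orai2 was lost in 5 of 12 such fits (adjusted p up to 0.0583), without replicate 1 of the 300 culture, replicate 2 of the 600 culture, replicate 3 of the 600 challenge or replicate 1 or 3 of the 900 challenge. That on Aqp2 was lost in 8 of 12 (up to 0.0851) and kept without replicate 3 of the 300 culture, replicate 1 of the 600 culture, replicate 1 of the 600 challenge or replicate 3 of the 900 challenge. That on Ccl2 was lost in 10 of 12 (up to 0.0982) and kept without replicate 2 of the 600 culture or replicate 3 of the 900 challenge, and it was also lost with quantile normalization, with the replicate block and with only the compared groups in the fit.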

How the results depend on the processing

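The drug contrasts called 0 of the 10 features under every alternative run and with each array left out in turn (ranges 0 to 0 at the 600 challenge, at the 900 challenge, as a mean of both and as their difference). Other counts depended on the setting. In the step to 600 without the drug the count went from 1 to 0 with the replicate block or with only the groups compared in the fit, to 2 with the filter on low values and to 3 with the variance trend. The plain 2-sample test called Ppp3ca there and not Rcan2. In the step to 900 without the drug it went from 3 to 1 with only the compared groups or the plain 2-sample test. In the 600 culture against the 300 culture it went from 2 to 4 with the filter or the variance trend, and to 1 with only the compared groups or the plain test. Leaving out 1 array gave 0 to 1 in the steps to 600 without and with the drug, 2 to 3 and 2 to 2 in the steps to 900, 0 to 3 between the cultures, 1 to 2 in the 600 challenge against the 600 culture and 0 to 1 in the difference between the steps.

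Of 828 differences of the 10 features recomputed under other settings, 803 kept their side of the threshold, 15 lost a call and 10 gained one, and of 840 with 1 array left out 811 kept it, 21 lost a call and 8 gained one. No called difference changed sign, while 11 and 69 uncalled ones did. For the pathway genes picked by rule or for a closer look, 97 of 1098 recomputed differences lost a call and 7 gained one, and 141 of 1188 lost one and 1 gained one with 1 array left out, again with no called sign change.

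Over all features the replicate numbers showed no pairing of the arrays: residuals of arrays with the same number correlated by 0.0045 on average over 45 pairs (-0.13 to 0.11), against -0.0022 over 90 other pairs, and 7 of 18 arrays were closest to one of their own number. Such a value over all features does not speak for single features. With the number as a block, Rcan2 missed the threshold in the step to 600 (adjusted p = 0.0622) and in the step to 900 with the drug (0.0633), and Nfatc4 passed it between the cultures (0.00705).

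The number of all features called moved by more than 1.5 times in some settings. For the drug it went from 116 at the 600 challenge and 143 at the 900 challenge to 178 and 233 with the filter, 268 and 385 with the variance trend, 0 and 0 with only the compared groups, and 2 and 0 with the plain test. For its mean and its difference between challenges, it went from 322 and 13 to 488 and 27 with the filter, 679 and 43 with the trend and 123 and 5 with only the compared groups. With 1 array left out it was 39 to 67 at the 600 challenge, 43 to 76 at the 900 challenge, 180 to 242 for the mean and 4 to 17 for the difference. In the step to 600 it went from 4087 to 2588 with the plain test, and with the drug from 3982 to 2479 with the compared groups and 2313 with the plain test. In the step to 900 it went from 4934 to 2860 and 2593, and with the drug from 5040 to 3059 and 2782. In the 600 challenge against the 600 culture it went from 4655 to 3071 and 2616.

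With 3 arrays a group and no signal over background given, small differences and levels near the lower quartile, those of Nfatc2 and Nfatc4 above all, are the least sure.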
